A study of Mus musculus with 9 samples.

Results

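Heat shock chaperones of the cytosol and mitochondria were examined in circulating mouse monocytes that lacked the chemokine receptor CCR2 or its ligand CCL2. The genes were chosen by name, with earlier results of these data known: Hsph1, Hspa8, Hspa4, Hsp90aa1, Hsp90ab1, Dnajb1, Dnaja1, Hspd1, Hspe1 and Hsf1. Of these 10 genes, 8 carry a symbol in the probe annotation, among 19938 genes tested in all. Hsp90ab1 and Hsf1 are not named there by symbol, gene ID or accession and were not analysed here. The compared groups were Ccr2-/-, Ccl2-/- and wild type mice on a Balb/c background, aged 14 to 18 weeks and free of tumors, with 3 arrays for each genotype. Both deletions were inherited through the germline and so present in all cells. Each array held RNA from the pooled blood of 5 mice, so that p-values measure the spread between pools and not between mice. Monocytes had been enriched by negative selection against MHC class II, CCR3, Ly-6G, B220, CD8 and CD4, followed by positive selection for CD11b, and monocytes were defined as lacking the NK cell marker NK1.1, although an antibody to it is not listed for the negative selection.

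Chaperones of the HSP70 and HSP90 families hold unfolded proteins and release them through cycles of ATP binding and hydrolysis. J-domain proteins bring clients to HSP70 and start hydrolysis, HSP110 proteins exchange the nucleotide, and co-chaperones pass clients from HSP70 to HSP90. In mitochondria, the HSP60 ring folds imported proteins under a lid of HSP10. Many of these genes are induced together by the transcription factor HSF1, which binds inverted repeats of GAA (heat shock elements), while others are made at a steady rate in nearly all cells.

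Values are linear intensities in arbitrary units, from the brightest transcript cluster of each gene unless said otherwise, and fold changes come from limma on log2 values with Benjamini-Hochberg adjustment over all genes, called at an adjusted p under 0.05. Ccl2-/- replicate 1 had a median intensity of 430.8, and the remaining arrays had medians of 324.1 to 355.1. Ccr2 itself fell to 0.0797-fold in Ccr2-/- compared to wild type monocytes (adjusted p = 4.33e-06). The sources used here do not say where the Ccl2 probes lie relative to its deletion, and Ccl2 was not used as a check. All 14 measured genes of a list of general monocyte markers were above the floor of the scale.

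Hsph1 encodes an HSP110 protein that exchanges the nucleotide of HSP70 and helps to dissolve protein aggregates. Its intensity was 2113, 2127 and 1945 on the Ccr2-/- arrays, 1615, 1426 and 1443 on the Ccl2-/- arrays and 826, 841 and 911 on the wild type arrays. The 3 genotypes did not overlap, with Ccr2-/- highest and wild type lowest. Hsph1 rose 2.4-fold in Ccr2-/- compared to wild type monocytes (log2 change 1.26 ± 0.08 SE, adjusted p = 0.00026) and had the 10th smallest p of all genes in that comparison. It rose 1.74-fold in Ccl2-/- compared to wild type monocytes (log2 change 0.80 ± 0.08 SE, adjusted p = 0.0102), the 9th smallest p. It was also 1.38-fold higher in Ccr2-/- than in Ccl2-/- monocytes (log2 change 0.47 ± 0.08 SE, adjusted p = 0.0227). The call in Ccr2-/- compared to wild type held in each of the 9 fits that left out 1 array. That in Ccl2-/- was lost without Ccl2-/- replicate 2 (adjusted p = 0.067), wild type replicate 1 (0.0955) or wild type replicate 2 (0.0875), and when only the 6 arrays compared were fitted (0.115).

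**Figure D1:**
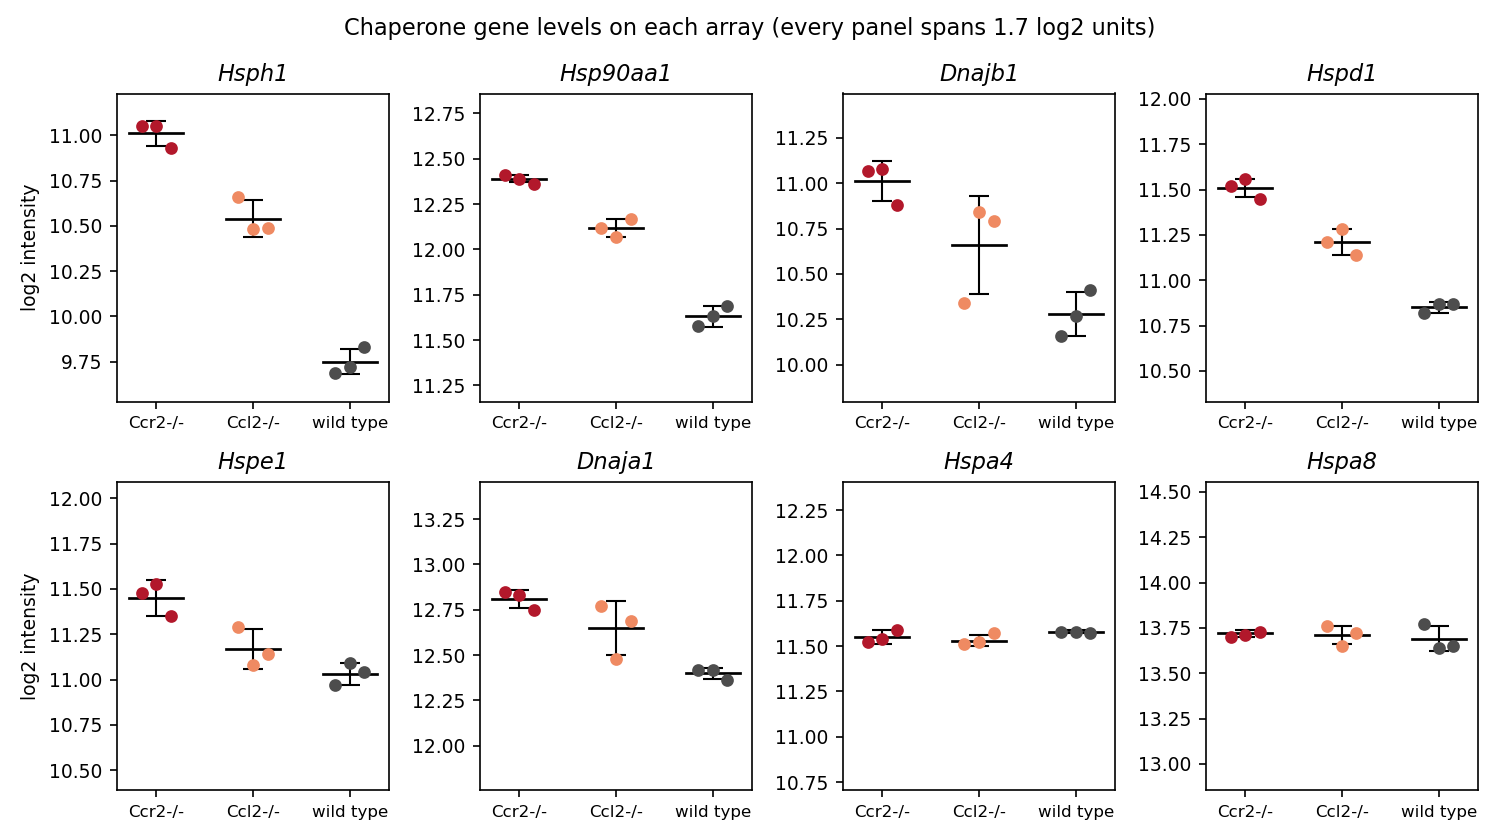
Log2 intensity of the 8 chaperone genes on each of the 9 arrays, with 1 point for each array, a horizontal bar for the mean and whiskers of 1 SD (n = 3 arrays for each genotype). Hsph1, Hsp90aa1 and Hspd1 lie in 3 separate bands, with Ccr2-/- above Ccl2-/- and Ccl2-/- above wild type, and the mean log2 levels of Hspa4 (11.55, 11.53 and 11.58) and Hspa8 (13.72, 13.71 and 13.69) in Ccr2-/-, Ccl2-/- and wild type are close together.

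The other 2 genes of the HSP70 and HSP110 families, Hspa8 and Hspa4, did not pass in any comparison. Hspa8 encodes HSC70, the constitutive HSP70 of the cytosol, which also uncoats clathrin vesicles. Its intensity was 13314, 13403 and 13629 on the Ccr2-/- arrays, 13835, 12888 and 13480 on the Ccl2-/- arrays and 13941, 12791 and 12830 on the wild type arrays, below the highest value in the table, 21184. The genotypes overlapped, and the ratio of Ccr2-/- to wild type was 1.02 with a 95% interval of 0.922 to 1.13 (adjusted p = 0.908). The ratio of Ccl2-/- to wild type was also 1.02, with an interval of 0.918 to 1.13 (adjusted p = 0.859). Hspa4 encodes a second HSP110 protein, a relative of Hsph1. It read 2927, 2981 and 3072 on the Ccr2-/- arrays, 2914, 2943 and 3039 on the Ccl2-/- arrays and 3069, 3052 and 3040 on the wild type arrays. All 3 Ccl2-/- arrays were just under wild type, as for 9.31% of all genes, but the ratio was 0.971 with an interval of 0.888 to 1.06 (adjusted p = 0.702), and that of Ccr2-/- to wild type was 0.98, from 0.896 to 1.07 (adjusted p = 0.894).

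Hsp90aa1 encodes HSP90α, the stress-inducible HSP90 of the cytosol, which matures kinases and steroid receptors. Its intensity was 5444, 5372 and 5269 on the Ccr2-/- arrays, 4448, 4302 and 4602 on the Ccl2-/- arrays and 3052, 3173 and 3299 on the wild type arrays. Again every array of one genotype was apart from every array of the others. Hsp90aa1 rose 1.69-fold in Ccr2-/- (log2 change 0.76 ± 0.06 SE, adjusted p = 0.00052) and 1.4-fold in Ccl2-/- compared to wild type monocytes (log2 change 0.49 ± 0.06 SE, adjusted p = 0.0334). The ratio of Ccr2-/- to Ccl2-/- was 1.21 with a 95% interval of 1.09 to 1.33, and missed the threshold (adjusted p = 0.0544). The call in Ccl2-/- was lost in 7 of the 9 fits with 1 array left out, with adjusted p from 0.0802 to 0.217. It held only without Ccl2-/- replicate 1 (0.0484) and without Ccl2-/- replicate 3.

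The 2 J-domain genes followed the same order of means with more scatter. Dnajb1, the heat-inducible HSP40 that activates HSP70, read 2144, 2165 and 1888 on the Ccr2-/- arrays, 1300, 1832 and 1766 on the Ccl2-/- arrays and 1146, 1237 and 1361 on the wild type arrays. Ccl2-/- replicate 1 lay among the wild type arrays, and the other Ccl2-/- arrays lay above them. Dnajb1 rose 1.66-fold in Ccr2-/- compared to wild type monocytes (log2 change 0.73 ± 0.14 SE, adjusted p = 0.00878). The ratio of Ccl2-/- to wild type was 1.3 (95% interval 1.04 to 1.61, adjusted p = 0.3), and without Ccl2-/- replicate 1 the log2 change was 0.53 rather than 0.38 (adjusted p = 0.0911). Dnaja1, a farnesylated HSP40 that works with HSC70, read 7384, 7283 and 6910 on the Ccr2-/- arrays, 6969, 5693 and 6625 on the Ccl2-/- arrays and 5479, 5487 and 5259 on the wild type arrays. All arrays of both knockouts were above wild type, and the knockouts overlapped each other. Dnaja1 rose 1.33-fold in Ccr2-/- compared to wild type (log2 change 0.41 ± 0.08 SE, adjusted p = 0.0128), a call lost without Ccr2-/- replicate 1 (0.0575), Ccr2-/- replicate 2 (0.0569) or wild type replicate 3 (0.054). In Ccl2-/- the ratio to wild type was 1.18 (95% interval 1.04 to 1.35, adjusted p = 0.275).

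Hspd1 and Hspe1 encode HSP60 and HSP10, the ring and the lid of the mitochondrial chaperonin. Hspd1 read 2942, 3012 and 2806 on the Ccr2-/- arrays, 2372, 2488 and 2258 on the Ccl2-/- arrays and 1802, 1870 and 1867 on the wild type arrays, with no overlap between genotypes. It rose 1.58-fold in Ccr2-/- compared to wild type monocytes (log2 change 0.66 ± 0.06 SE, adjusted p = 0.000723) and was 1.23-fold higher in Ccr2-/- than in Ccl2-/- monocytes (log2 change 0.30 ± 0.06 SE, adjusted p = 0.0451). The ratio of Ccl2-/- to wild type was 1.28 (95% interval 1.16 to 1.42) and missed the threshold (adjusted p = 0.0753), although it passed without Ccl2-/- replicate 3 (0.0347). Hspe1 read 2862, 2966 and 2605 on the Ccr2-/- arrays, 2498, 2162 and 2251 on the Ccl2-/- arrays and 2012, 2173 and 2102 on the wild type arrays. The Ccr2-/- arrays were above all others, and 1 of the Ccl2-/- arrays lay inside the wild type range. Hspe1 rose 1.34-fold in Ccr2-/- compared to wild type monocytes (log2 change 0.42 ± 0.08 SE, adjusted p = 0.00967), a call lost without Ccr2-/- replicate 2 (0.0502). In Ccl2-/- its ratio to wild type was 1.1 (95% interval 0.965 to 1.25, adjusted p = 0.486).

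The mitochondrial pair shares its start region. Hspd1 (chr1:55077833-55088243) and Hspe1 (chr1:55088148-55091317) point away from each other, and 215 bases separate the Hspe1 start at base 55088148 from an Hspd1 start at base 55087932 in the RefSeq annotation of build GRCm38.p6. A second Hspd1 start, at base 55088243, lies beyond the Hspe1 start, so that the spans of the genes overlap. The other 6 measured genes lie on chromosomes 4 (Dnaja1), 5 (Hsph1), 8 (Dnajb1), 9 (Hspa8), 11 (Hspa4) and 12 (Hsp90aa1). RefSeq windows from 250 bases before to 50 after a start were searched for 3 neighbouring GAA units in alternate directions, GAANNTTCNNGAA or TTCNNGAANNTTC, which are each other's reverse complement, so that both strands were covered. Overlapping matches were counted. Of 32851 windows, 198 held such a match (0.603%), and 15.1% held the shorter form of 2 units, GAANNTTC or TTCNNGAA, each its own reverse complement. A match of 3 units holds 2 overlapping ones of 2 units. Windows were at hand for 6 of the 8 measured genes, not for Hsp90aa1 and Hspa8. The match of 3 units was present in at least 1 window of Hsph1, Hspd1 and Hspe1, that of 2 units also in one of Dnaja1, and neither in any window of Dnajb1 and Hspa4. The window of the second Hspd1 start held neither form, and nor did those of the later Dnaja1 starts, at bases 40722922 and 40722930. The sequences below show the match between Hspd1 and Hspe1, which is one and the same stretch for both, that of Hsph1, and the shorter one of Dnaja1, with the matching bases in capitals. The Hspe1 stretch lies at chr1:55088048-55088147 (+), that of Hsph1 at chr5:149636287-149636316 (-) and that of Dnaja1 at chr4:40722318-40722377 (+).
Hspe1: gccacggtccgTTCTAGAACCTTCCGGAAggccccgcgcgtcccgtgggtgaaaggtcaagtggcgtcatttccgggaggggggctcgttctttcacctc
Hsph1: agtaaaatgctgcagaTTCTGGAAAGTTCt
Dnaja1: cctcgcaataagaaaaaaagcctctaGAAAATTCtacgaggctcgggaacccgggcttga
In Hspe1 the capitals run from base -89 to -72 before its start and in Dnaja1 from base -124 to -117. In Hsph1 they run from base 37 to 49 after the more upstream of the starts with a window. The RefSeq span of Hsph1 reaches further upstream, to base 149636498. A match is a description of the letters and was not tested for binding in these cells. Dnajb1 rose in Ccr2-/- monocytes with no match in its windows, and Hspa4, also with none, did not pass.

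Counted together, 6 of the 8 measured chaperone genes rose and none fell in Ccr2-/- compared to wild type monocytes, where 4.91% of all genes rose and 13.3% were called in either direction. The same 6 had an unadjusted p under 0.05, against 23.2% of all genes in either direction. Across all genes 978 rose and 1670 fell in that comparison, and 1317 rose and 1379 fell after quantile normalization. In Ccl2-/- compared to wild type monocytes 2 of the 8 rose, Hsph1 and Hsp90aa1, against 0.0752% of all genes (0.16% in either direction), and 5 of the 8 had an unadjusted p under 0.05, against 13.1% of all genes in either direction. In Ccr2-/- compared to Ccl2-/- monocytes 2 of the 8 were higher, Hsph1 and Hspd1, against 0.732% of all genes (3.6% in either direction), and 5 of the 8 had an unadjusted p under 0.05, against 18.6%. There 146 genes were higher and 572 lower in all, against 302 and 385 after quantile normalization and 187 and 74 after centring each array on its median. By the size limits of the study's methods, a ratio over 1.2 and a difference over 100 with no test, 6 of the 8 genes were higher in Ccr2-/- compared to wild type (6.56% of all genes), 4 in Ccl2-/- compared to wild type (7.84%) and 5 in Ccr2-/- compared to Ccl2-/- (3.47%). Both comparisons with wild type rest on the same 3 wild type arrays. Since these genes and the lists below were chosen with earlier results of these data known, the shares are descriptive and not an independent test.

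The median log2 change of the 8 genes was 0.54 in Ccr2-/- compared to wild type, where that of all genes was 0.01. It was 0.30 in Ccl2-/- compared to wild type, where that of all genes was 0.08, and 0.28 in Ccr2-/- compared to Ccl2-/-, where that of all genes was -0.08. Centring each array on its median took 0.11 off every log2 change in Ccl2-/- compared to wild type. Hsph1 then remained called (log2 change 0.68, adjusted p = 0.0359) and Hsp90aa1 did not (log2 change 0.37, adjusted p = 0.249). The same step added 0.11 to the changes in Ccr2-/- compared to Ccl2-/- and moved those in Ccr2-/- compared to wild type by 0.00.

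**Figure D2:**
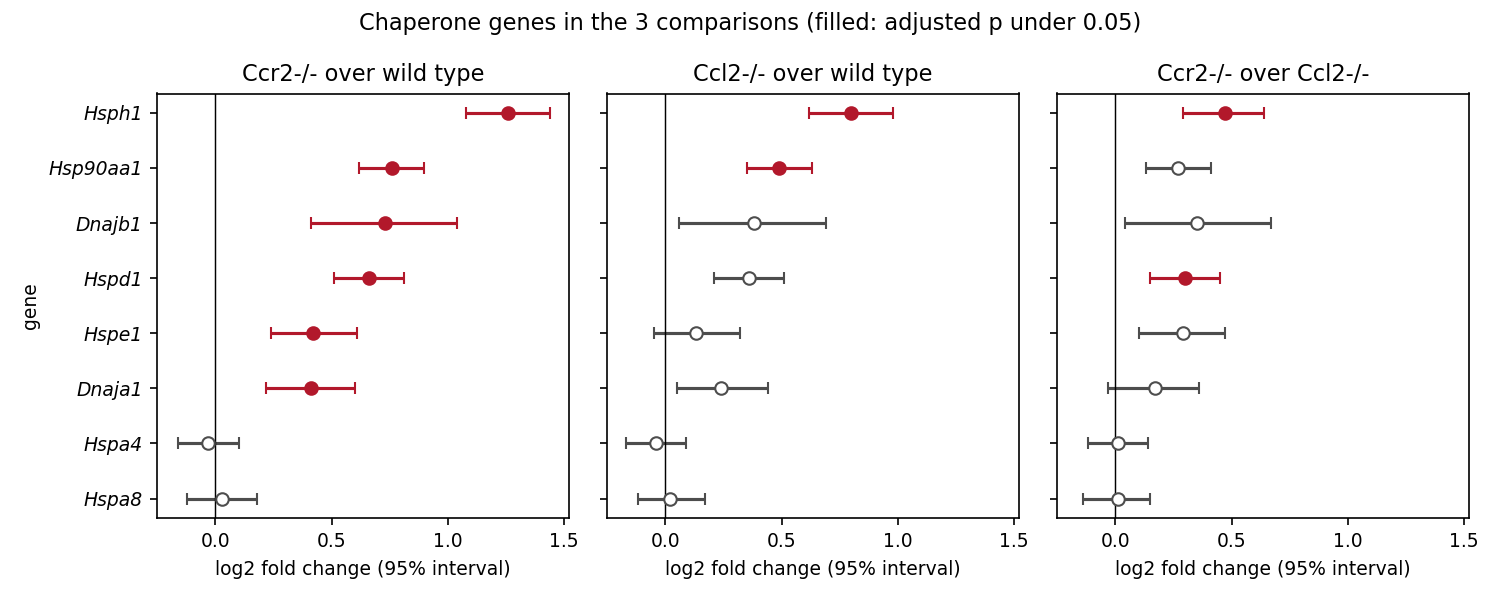
Log2 fold change of the 8 chaperone genes in the 3 comparisons, with 95% intervals from limma on 9 arrays. Filled red points passed an adjusted p under 0.05: 6 genes in Ccr2-/- over wild type, 2 in Ccl2-/- over wild type and 2 in Ccr2-/- over Ccl2-/-, with Hspa4 and Hspa8 near 0 in each panel.

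Averaged over the 8 genes, the log2 level relative to the wild type mean was 0.55, 0.56 and 0.48 on the Ccr2-/- arrays, 0.31, 0.27 and 0.31 on the Ccl2-/- arrays and -0.03, 0.00 and 0.03 on the wild type arrays. Without centring, the Ccl2-/- arrays thus lay between the other genotypes. For Ccl2-/- replicate 1 this level includes its higher median intensity (430.8, against 324.1 to 355.1 on the remaining arrays). Its place after centring was not tested. The full order of every Ccr2-/- array above every Ccl2-/- array and every Ccl2-/- array above every wild type array was met by Hsph1, Hsp90aa1 and Hspd1, and by 489 of all genes (2.45%). Against wild type alone, all Ccr2-/- arrays were higher for 6 of the 8 genes, against 15.7% of all genes, and all Ccl2-/- arrays were higher for 4 of the 8, against 9.43% of all genes. All Ccr2-/- arrays were above all Ccl2-/- arrays for 5 of the 8, against 7.58% of all genes. Dnajb1 and Hspe1 were apart between the knockouts without passing the test (ratio of Ccr2-/- to Ccl2-/- 1.28, adjusted p = 0.218, and 1.22, adjusted p = 0.103). For Dnaja1 that ratio was 1.12, with a 95% interval of 0.982 to 1.28 (adjusted p = 0.338).

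Both calls between the knockouts were lost in some fits with 1 array left out. That of Hsph1 was lost without Ccl2-/- replicate 2 or 3, Ccr2-/- replicate 1 or 2, or wild type replicate 2 (adjusted p 0.0502 to 0.11), and that of Hspd1 was lost in 8 of 9 such fits (adjusted p 0.0766 to 0.177) and held without Ccl2-/- replicate 1 (0.049). When only the 6 arrays of the knockouts were fitted, the adjusted p was 0.104 for Hsph1 and 0.171 for Hspd1.

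The 8 genes are read by 15 transcript clusters with a single symbol, 3 each for Hspa8 and Hsp90aa1 and 2 each for Dnaja1, Hspd1 and Hspe1. A further 3 clusters that name Hspa8 or Dnaja1 together with a small RNA gene were not used. Many of these genes have processed copies elsewhere in the mouse genome, and the annotation does not say which cluster reads the gene and which a copy, so clusters of 1 gene may share signal. The 3 Hsp90aa1 clusters each had a log2 change of 0.76 in Ccr2-/- and from 0.45 to 0.49 in Ccl2-/- compared to wild type. The second Dnaja1 cluster rose in Ccr2-/- compared to wild type by 0.50 on the log2 scale (adjusted p = 0.022), and the 2 Hspe1 clusters rose by 0.42 and 0.41. In Ccl2-/- compared to wild type the second Dnaja1 cluster had a log2 change of 0.38 (adjusted p = 0.221), where the brighter one had 0.24. None of the 3 Hspa8 clusters passed in any comparison.

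The 2 Hspd1 clusters parted in Ccl2-/- monocytes. The dimmer one read 1542, 1637 and 1465 on the Ccr2-/- arrays, 864, 1186 and 1172 on the Ccl2-/- arrays and 976, 940 and 1058 on the wild type arrays. Ccl2-/- replicate 1 was below wild type there and the other Ccl2-/- arrays above it, with a log2 change of 0.10 ± 0.13 SE in Ccl2-/- compared to wild type (adjusted p = 0.681) where the brighter cluster had 0.36 ± 0.06. The full order of genotypes seen in the brighter cluster was thus not met by the dimmer one. In Ccr2-/- compared to wild type the 2 clusters had log2 changes of 0.64 and 0.66. Between the knockouts the dimmer cluster had a log2 change of 0.54 ± 0.13 SE and was not called (adjusted p = 0.0592). The third Hsp90aa1 cluster stood at the threshold in Ccl2-/- compared to wild type (adjusted p = 0.05), and 2 of the 3 passed in Ccr2-/- compared to Ccl2-/- (adjusted p = 0.0494 and 0.0421).

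**Figure D3:**
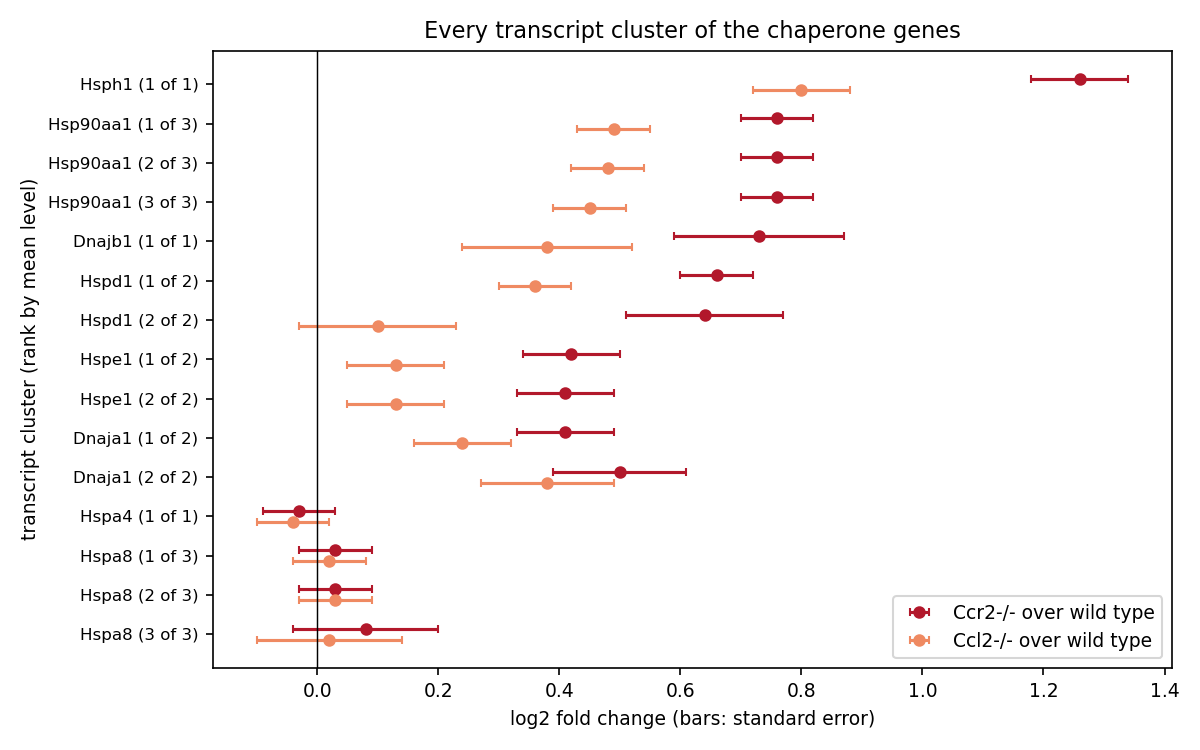
Log2 fold change of each of the 15 transcript clusters of the chaperone genes in Ccr2-/- over wild type (dark red) and Ccl2-/- over wild type (orange), with bars of 1 standard error and clusters of a gene ordered by mean level. Clusters of Hspa8, Hsp90aa1 and Hspe1 lie close together. In Ccl2-/- the second Hspd1 cluster lies at 0.10 against 0.36 for the first, and the second Dnaja1 cluster at 0.38 against 0.24 for the first.

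The partners of these chaperones were read from lists of other protein-folding genes. Among HSP90 co-chaperones, 6 of 19 measured genes rose and none fell in Ccr2-/- compared to wild type monocytes, which is 31.6% against 4.91% of all genes. Stip1, which links HSP70 to HSP90, rose 1.58-fold (log2 level 12.12 ± 0.02 SD in Ccr2-/- and 11.46 ± 0.08 in wild type, adjusted p = 0.00124). Ahsa2, related to the activator of HSP90 ATPase, rose 1.42-fold (adjusted p = 0.00202), and Ppid, the cyclophilin of HSP90 complexes, rose 1.39-fold (adjusted p = 0.00454). Ptges3, or p23, which stabilizes the closed form of HSP90, rose 1.27-fold (adjusted p = 0.0051). The other two, Chordc1 and Fkbp4, rose 1.42- and 1.32-fold (adjusted p = 0.00654 and 0.00875), and Fkbp4 was named after its value was seen. The list's median log2 change was 0.08, since the other 13 genes were spread around 0. In Ccl2-/- compared to wild type none of the 19 passed and 6 had an unadjusted p under 0.05 (31.6%, against 13.1% of all genes), 3 of them higher and 3 lower. Stip1 was among the higher, at 1.33-fold (adjusted p = 0.0875). Between the knockouts Ahsa2 alone of the list was called (Ccr2-/- 1.27-fold of Ccl2-/-, adjusted p = 0.0373).

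Hspa1a, the strongly inducible HSP70, rose 1.51-fold in Ccr2-/- compared to wild type monocytes (log2 level 10.15 ± 0.12 SD in Ccr2-/- and 9.56 ± 0.12 in wild type, adjusted p = 0.0163). It was the 1 of 8 measured genes among the other HSP70 and HSP110 genes that passed (12.5% higher, against 4.91% of all genes). Its ratio of Ccl2-/- to wild type was 1.63 (log2 level 10.26 ± 0.24 SD in Ccl2-/-, adjusted p = 0.0774), and its mean, unlike those of the 6 chaperone genes that rose, was not higher in Ccr2-/- than in Ccl2-/- (ratio of Ccr2-/- to Ccl2-/- 0.925, 95% interval 0.755 to 1.13). Hspa1a has a near-identical neighbour, Hspa1b, and the array may read both. None of 12 genes for nucleotide exchange factors and other HSP70 partners passed in Ccr2-/- compared to wild type, and 5 of them had an unadjusted p under 0.05 (41.7%, against 23.2% of all genes), 4 higher and 1 lower.

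Of 23 other J-domain genes, 3 were higher in Ccr2-/- than in wild type monocytes (13%, against 4.91% of all genes) and 2 were lower (8.7%, near the 8.38% of all genes). Dnajb4, a close relative of Dnajb1, rose 1.64-fold (adjusted p = 0.00101), Dnajb2 rose 1.31-fold (adjusted p = 0.0163) and Dnajc9, a histone chaperone named after its value was seen, rose 1.33-fold (adjusted p = 0.0382). Dnajb14, an HSP40 anchored in the membrane of the endoplasmic reticulum, fell to 0.526-fold (log2 change -0.93 ± 0.08 SE, adjusted p = 0.000543), and Dnajc16 to 0.723-fold (adjusted p = 0.00139). Dnajb14 was also lower in Ccr2-/- than in Ccl2-/- monocytes, at 0.687-fold (adjusted p = 0.0159).

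Among small heat shock proteins none of 10 rose and 3 fell in Ccr2-/- compared to wild type monocytes, where 8.38% of all genes fell. These were the lens crystallins Cryab (0.841-fold, adjusted p = 0.0296) and Cryaa (0.765-fold, adjusted p = 0.0383), and Hspb11 (0.631-fold, adjusted p = 0.0245), which despite its name works in intraflagellar transport. In the cytosolic chaperonin TRiC and its helper prefoldin, Cct6a and Cct3 rose 1.17- and 1.21-fold (adjusted p = 0.0451 and 0.0458) and the other 15 genes did not pass (11.8% higher, against 4.91% of all genes). Of 19 other mitochondrial chaperones and proteases none passed in Ccr2-/- compared to wild type, and 5 had an unadjusted p under 0.05 (26.3%, near the 23.2% of all genes). Hspa9, the HSP70 of the mitochondrial matrix, was at 1.13-fold (95% interval 1.02 to 1.24, adjusted p = 0.121). In the endoplasmic reticulum 1 of 22 genes rose (4.55%, near the 4.91% of all genes) and 3 fell (13.6%, against 8.38%). Dnajc1, an HSP40 of its membrane, rose 1.42-fold (adjusted p = 0.00216), and Serp1, which stabilizes new membrane proteins, the protein disulfide isomerase P4hb and the disulfide reductase Dnajc10 fell to 0.763-, 0.776- and 0.808-fold (adjusted p = 0.0141, 0.0266 and 0.0306).

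**Figure D4:**
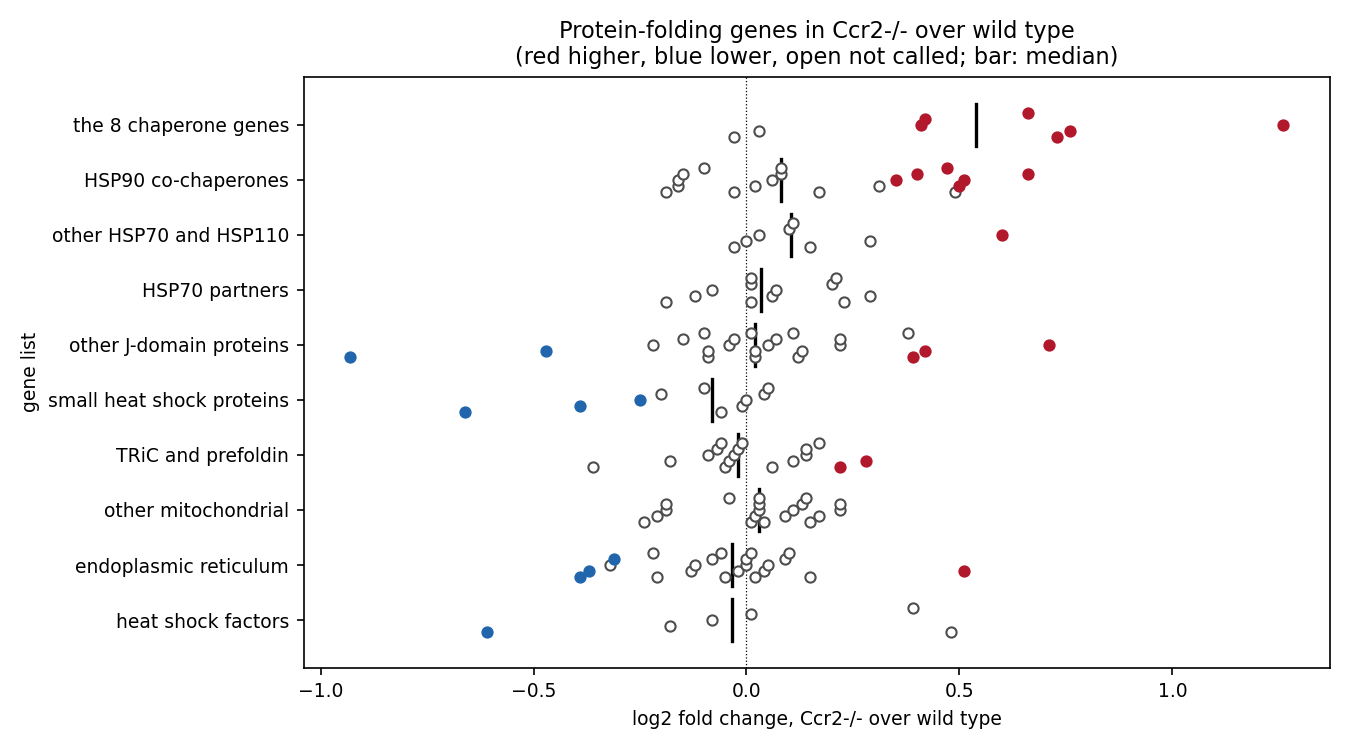
Log2 fold change in Ccr2-/- over wild type of each measured gene in 10 groups of protein-folding genes, with red points higher and blue points lower at an adjusted p under 0.05, open points not called, and a bar at each group's median. The 8 chaperone genes have a median of 0.54 with 6 red points, the HSP90 co-chaperones have 6 red points among 19, and the medians of the other groups lie near 0.

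Of the heat shock factors and their partners, Hsf2 fell to 0.655-fold in Ccr2-/- compared to wild type monocytes (log2 level 9.13 ± 0.12 SD in Ccr2-/- and 9.74 ± 0.04 in wild type, adjusted p = 0.00875), and the other 5 genes did not pass (16.7% lower, against 8.38% of all genes). Hsf2 encodes a factor that can form mixed trimers with HSF1. On a list of other well known HSF1 targets, which overlaps the lists above, 8 of 18 measured genes rose in Ccr2-/- monocytes (44.4%, against 4.91% of all genes). Cryab alone fell (5.56%, against 8.38% of all genes). Dnajb4, Stip1 and Chordc1 were among the 8, and so was Slc5a3, a carrier of myo-inositol, which rose 1.5-fold (adjusted p = 0.00577). None of the 18 passed in Ccl2-/- compared to wild type, and 6 had an unadjusted p under 0.05, all higher (33.3%, against 13.1% of all genes in either direction). Windows of Chordc1, Stip1, Ptges3, Hspa1a, Dnajb4 and Dnajb6 were also looked up. Chordc1 and Dnajb6 held a match of 3 units, and Dnajb6 was not called in Ccr2-/- compared to wild type. Hspa1a and Dnajb4 held only the form of 2 units, and Stip1 and Ptges3 held neither. The matching stretch of Chordc1, longer than that of Hsph1, lies at chr9:18292257-18292286 (+), where the window reads, with all matching units in capitals:
Chordc1: caaccgGAACGTTCGGGAAAATTCCTGAAg
Over all measured genes with a window, 88 had a match of 3 units, and 9 of these rose in Ccr2-/- monocytes (10.2%), against 4.96% of 15614 genes with a window. Without Hsph1, Hspd1 and Hspe1, 6 of 85 rose (7.06%) and 6 fell, where 1365 of the 15614 genes with a window fell.

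In bulk monocytes, fewer cells of a type and less RNA in each cell cannot be told apart, and the markers of some cell types moved with or against the chaperone genes. All 20 measured NK cell markers rose in Ccr2-/- compared to wild type monocytes, with a median of 1.73-fold, where 4.91% of all genes rose. In Ccl2-/- compared to wild type 1 of 20 did (5%, against 0.0752% of all genes), with a median of 1.38-fold. Their summed level (log2 of the sum) was 17.21 to 17.25 on the Ccr2-/- arrays, 16.78 to 17.05 on the Ccl2-/- arrays and 16.48 to 16.59 on the wild type arrays. This is the same order of genotypes as for Hsph1, Hsp90aa1 and Hspd1, and no NK marker was at the floor on any array.

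Markers of Ly-6Chi monocytes ran the other way. Of the 11 measured, which include Ccr2 itself, 10 fell in Ccr2-/- compared to wild type monocytes (90.9%, against 8.38% of all genes), with a median of 0.374-fold. None fell in Ccl2-/- compared to wild type, with a median of 0.687-fold. There 9 had an unadjusted p under 0.05 (81.8%, against 13.1% of all genes), of which 8 were lower and 1 higher. The summed level of the 11 was 14.62 to 14.76 on the Ccr2-/- arrays, 15.33 to 15.57 on the Ccl2-/- arrays and 15.69 to 15.91 on the wild type arrays. By flow cytometry of blood, the study reported fewer Ly-6Chi monocytes in both knockouts. The share of all monocytes in blood did not differ between genotypes there. Of 14 general monocyte markers, 9 fell in Ccr2-/- compared to wild type (64.3%, against 8.38% of all genes). Their summed level was 16.58 to 16.66 in Ccr2-/-, 16.76 to 16.87 in Ccl2-/- and 16.83 to 16.89 in wild type. That of 14 Ly-6Clo monocyte markers did not follow the order, at 16.16 to 16.24, 16.27 to 16.38 and 16.00 to 16.25, with 2 higher in Ccr2-/- than in wild type (14.3%, against 4.91% of all genes). No T cell, basophil and mast cell, platelet or erythroid marker was called in Ccr2-/- compared to wild type. The summed T cell level spread widely, from 12.77 to 14.28 on the Ccr2-/- arrays, 12.89 to 13.44 in Ccl2-/- and 13.35 to 13.46 in wild type. Of 13 dendritic cell markers 4 were lower in Ccr2-/- than in wild type (30.8%), and of 14 neutrophil markers 2 were (14.3%), against 8.38% of all genes. Of 11 B cell markers 1 was higher (9.09%, against 4.91% of all genes). Immediate-early genes, which respond to handling of cells, also moved. Of 25, 2 were higher (8%, against 4.91% of all genes) and 6 lower (24%, against 8.38%) in Ccr2-/- than in wild type monocytes. Fos fell to 0.388-fold (adjusted p = 0.000543) and Atf3 to 0.31-fold (adjusted p = 0.00052), while Myc rose 1.52-fold (adjusted p = 0.00163). The part of these markers in the chaperone results was not tested.

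The genes whose levels over the 9 arrays were most like the mean of the 8 chaperone genes were Ptges3 and Rgs3 (Pearson's r = 0.992 for both), followed by Mtmr12, Ggct and Klrc3 (r = 0.984 each). For Hsph1 alone the most alike were Ptges3 (r = 0.995), Rgs3 and Bcl2 (r = 0.987 for both), with Klrc2 and Stip1 next (r = 0.986 for both). These arrays fall into genotypes, so that any gene in the order Ccr2-/-, Ccl2-/-, wild type scores highly, and the correlations describe 9 arrays of 3 groups. Klrc3 and Klrc2 encode receptors of the NKG2 family, known from NK cells.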

How the data were processed

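RNA of purified monocytes was read on Affymetrix Mouse Gene 1.0 ST arrays. The authors deposited dChip output on a linear intensity scale. The program's version, normalization and expression model are not given in the sources used here, and no step between arrays was added. Of 35512 transcript clusters, 21789 carried 1 symbol. A gene with several (999 genes) was read from the one with the highest mean. Values below 1 were set to 1 (19 values) before log2. All 9 arrays were fitted with limma 3.58.1 in R 4.3.3, tested on simulated data. The number of arrays limits the precision. The chaperone genes and all lists were chosen with earlier results of these data known. Each of the former is named, and of each list only genes among the 4 smallest p in a comparison with wild type, unless said. The 10 genes most alike were ranked by Pearson correlation, and not all are printed. Old symbols (5) and start regions came from RefSeq tables of GRCm38.p6. The methods' ratio over 1.2 and difference over 100 were applied to group means as an alternative call.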

Additional observations from a re-analysis of the deposited data

How the results depend on the processing

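In Ccr2-/- compared to wild type monocytes the count of 6 chaperone genes was the same under every alternative except leaving out 1 array, which gave 4 to 6. In Ccl2-/- compared to wild type the count of 2 became 1 with each array centred on its median, 0 when only the 6 arrays compared were fitted, 4 by the size limits of the methods (Hsph1, Hsp90aa1, Dnajb1 and Hspd1), 5 by unadjusted p, and 0 to 3 with 1 array left out. It became 3 with an intensity trend in the variances, which added Hspd1. In Ccr2-/- compared to Ccl2-/- the count of 2 became 4 with quantile normalization or an intensity trend in the variances, 1 with centring, 0 with only the 6 arrays, 5 by the size limits or by unadjusted p, and 0 to 3 with 1 array left out. It became 3, with Hsp90aa1 added, with only genes of a mean over 100, with an offset of 50 before log2, or with the mean of a gene's clusters. Of 480 alternative values for single genes, 416 kept direction and call, 21 passed where they had not, 37 no longer passed, and 6 changed sign. The 6 were log2 changes near 0: for Hspa8 in Ccl2-/- compared to wild type -0.0004 (quantile) and -0.09 (centring), for Hspa4 in Ccr2-/- compared to wild type 0.01 (quantile), and in Ccr2-/- compared to Ccl2-/- -0.02 for Hspa8 without Ccl2-/- replicate 2, and -0.0039 for Hspa8 and -0.01 for Hspa4 without Ccr2-/- replicate 3, where leaving out 1 array gave -0.02 to 0.03 for Hspa8 and -0.01 to 0.03 for Hspa4. The cause was not tested.

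The labels give the same replicate numbers to all genotypes, but same-numbered arrays did not deviate together in each pair (r = 0.34, -0.18 and 0.56 between Ccl2-/- and wild type, 0.10, 0.02 and -0.15 between Ccr2-/- and wild type, -0.01, 0.13 and -0.11 between the knockouts), and not every array correlated best with its own number. With the replicate number as a block, 6 chaperone genes were called in Ccr2-/- compared to wild type, 0 in Ccl2-/- compared to wild type and 0 in Ccr2-/- compared to Ccl2-/-.

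Over all genes, the 32 calls in Ccl2-/- compared to wild type became 62 with quantile normalization, 366 with a trend, 105 with an offset of 50, 7 with the block, 2 with 6 arrays, and 6 to 476 with 1 array left out. The 2648 in Ccr2-/- compared to wild type became 1647 with centring and 1663 to 3479 with 1 array left out, and the 718 in Ccr2-/- compared to Ccl2-/- became 261 with centring, 1344 with a trend, 167 with the block, 17 with 6 arrays, and 22 to 1189 with 1 array left out.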

Other observations

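On a list of the integrated stress response, a pathway that slows translation when amino acids run short or proteins misfold, 2 of 12 genes were higher and 2 lower in Ccr2-/- than in wild type monocytes (16.7% each, against 4.91% of all genes higher and 8.38% lower). None of the 12 was called in Ccl2-/- compared to wild type, and 1 had an unadjusted p under 0.05 (8.33%, against 13.1% of all genes).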
